A study of Homo sapiens with 16 samples.

Results

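The comparison of D. rotundifolia 3× with Ctrl after 6 h covers 8 RNA-seq libraries of the 16 in the series, 4 per group, and describes the 14255 of 24671 gene IDs that had a mean of at least 1 TPM over those 8 libraries. All cultures were 16HBE cells (16HBE14o-), an immortalized line of human bronchial epithelium that descends from a single donor, so that the cultures differ by experiment and not by person. D. rotundifolia 3× is an ethanolic extract of sundew, diluted in decimal steps to 3× and then further diluted in the medium, and Ctrl is the diluted ethanol vehicle without plant material. Ctrl cultures ran beside the treated ones in the same plates for the same 6 h, and both groups had the same medium with reduced serum. Libraries of the same number were compared as 4 pairs (replicates 1 to 4). Values are TPM (transcript abundance scaled to a fixed total), a share of each library that is corrected for transcript length. A change in total RNA per cell, or in the share of cells that express a gene, cannot be told apart from a change in mRNA per expressing cell in such bulk values.

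The 8 libraries were alike in their overall make-up. Each had 14086 to 14310 gene IDs at 1 TPM or more, 2.54% to 4.43% of the TPM fell to mitochondrial genes and 9.94% to 12.03% to ribosomal protein genes, and any 2 libraries correlated at 0.971 to 0.980 (Pearson on log2 values, across genes, which are not independent replicates). The defining genes of simple epithelium were abundant: KRT7, KRT8, KRT18, KRT19, EPCAM, CDH1, CLDN4 and ESRP1 together had 9998 to 12294 TPM in Ctrl and 9593 to 13595 TPM in treated cultures. KRT8 made up much of this sum, with a mean of 6878 TPM over the 8 libraries. A basal epithelial list of 10 genes summed to 637 to 700.2 TPM in Ctrl and 663 to 845 TPM in treated cultures. Much of that came from KRT17, with a mean of 351 TPM over the 8 libraries. Markers of secretory airway cells were at or near 0, with 2 of 9 genes listed and a sum of 0.0933 to 0.315 TPM over all libraries. The 8 ciliated-cell markers summed to 6.81 to 10.1 TPM. Fibroblast markers summed to 12.3 to 15.6 TPM (almost all of it COL1A1), endothelial markers to 2.89 to 4.81 TPM and leukocyte markers to 21.7 to 29.4 TPM (almost all of it CD68, a lysosomal protein of many cell types), and none of the genes of these marker lists passed the test in either direction.

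Several signalling systems recur among the genes that changed. The aryl hydrocarbon receptor (AhR) is a cytosolic transcription factor that binds flat aromatic molecules, pairs with ARNT in the nucleus and switches on xenobiotic-metabolizing enzymes together with its own repressors. The epidermal growth factor receptor (EGFR) is the main growth receptor of airway epithelium. Its ligands are made as membrane-bound precursors, are shed, and activate the RAS and ERK kinase cascade, which induces transcription factors such as FOSL1 and, at the same time, phosphatases (DUSP genes) and Sprouty proteins (SPRY genes) that dampen it. Bronchial epithelial cells also release interleukins and chemokines that recruit neutrophils and alert neighbouring cells.

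After 6 h, 38 genes rose and 2 fell with D. rotundifolia 3×. The rises included the AhR target CYP1B1 (7.69-fold by the ratio of mean TPM), SERPINB2 (4.15-fold), the EGFR ligands EREG (3.93-fold), AREG (2.99-fold), HBEGF (2.68-fold) and EPGN (2.59-fold), the cytokine IL1A (3.06-fold) and the transcription factor FOSL1 (3.08-fold). The falls were IGFBP3, a binding protein of insulin-like growth factors, and PLAC8. A gene was said to rise or fall where its adjusted p was under 0.05 in limma, fitted on log2(TPM + 1) with the replicate number as a block, with two-sided p-values adjusted by the Benjamini-Hochberg method over the 14255 gene IDs. Fold changes from this fit are on the log2(TPM + 1) scale and understate the change of low genes. The calls were 0.267% of the tested genes for rises and 0.014% for falls, and 37 rises and both falls lay beyond 0.4 on the log2 scale. Unadjusted p was under 0.05 for 1854 genes, 1173 higher and 681 lower. Of the 14255 tested genes, 7375 had a higher and 6880 a lower mean on the log2 scale in treated cultures. The 38 rises had a median log2 change of 0.85 (0.35 to 2.90), against 0.0052 over all tested genes, and every one of them was higher in all 4 pairs, as 13.1% of all tested genes were. In 33 of the 38, every treated library lay above every Ctrl library, against 3.42% of all tested genes. The counts depended on the fit: without the block limma called 15 genes higher, 8 of them among the 38, and 0 lower. With no filter on low values, or with moderation with no trend, 2 genes were higher (EREG and EPGN) and 0 lower. Leaving out any one pair gave 0 calls with adjusted p under 0.05, while all 40 genes kept their direction and an unadjusted p under 0.05. The 40 genes were chosen from these same 4 pairs, so this is no independent support.

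**Figure D1:**
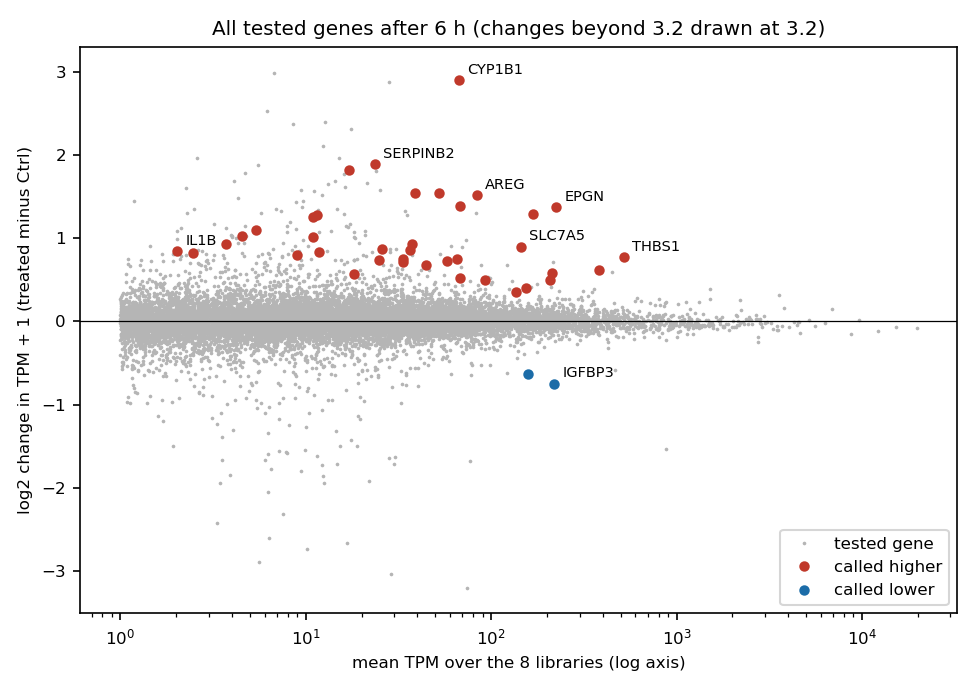
Log2 change (vertical axis, treated minus Ctrl, log2(TPM + 1)) against mean TPM over the 8 libraries (log axis) for the 14255 tested genes. Red points are the 38 genes that rose and blue points the 2 that fell. The called genes span mean levels from 2.03 to 519 TPM, and several grey points reach changes as large without passing the test.

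Large estimates alone did not make a call. Of 76 genes with an estimate above 1 on the log2 scale, 14 passed the test, and of 54 below −1, 0 did. The same sign in all 4 pairs was seen for 36 of those 76 and 14 of those 54, against 3279 of all 14255 tested genes. A library was listed at 0 for 50 of the 76 and 44 of the 54, against 334 of all tested genes. Protein-coding genes made up 21 of the 76 and 8 of the 54, against 11904 of all tested genes. The largest fall by estimate, the pseudogene CKS1BP2, was listed at 0 in Ctrl replicate 4 and in all 4 treated libraries and ranged from 76.5 to 361 TPM in the other 3 Ctrl libraries; it was chosen as an example after its values had been seen. Of the 54, 8 had every treated library below every Ctrl library, and 5 of these 8 had no library at 0: TMEM253, ARMCX2, CLHC1, OVOL2 and LRIG3. Over all tested genes, 235 had every treated library below every Ctrl library, 231 of them with no library at 0. OVOL2, a zinc-finger transcription factor that maintains epithelial identity, had 6.80, 4.63, 5.57 and 2.21 TPM in Ctrl and 1.30, 1.52, 1.219 and 1.85 TPM with D. rotundifolia 3× (log2 difference −1.16, limma adjusted p = 0.228). ARMCX2, a protein with armadillo repeats, had 7.36, 2.08, 2.18 and 2.01 TPM in Ctrl and 0.406, 0.191, 0.309 and 0.771 TPM with D. rotundifolia 3× (log2 difference −1.50, limma adjusted p = 0.193). The Ctrl libraries of both genes were spread widely, with replicate 4 low for OVOL2 and replicate 1 high for ARMCX2. TMEM253, CLHC1 and LRIG3 had estimates of −1.94, −1.23 and −1.03 (limma adjusted p = 0.255, 0.266 and 0.386). These 5 genes were named after their values had been seen.

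CYP1B1 (ENSG00000138061, chr2:38066973-38109902 on GRCh38 in GENCODE 44, minus strand), a cytochrome P450 that oxidizes polycyclic aromatic compounds and estradiol, had the largest change among the called genes. It had 13.7, 10.7, 17.2 and 20.1 TPM in Ctrl and 121, 117, 122 and 115 TPM with D. rotundifolia 3×, in the order of the replicate numbers. The groups were far apart, and the treated cultures were closer to one another than the Ctrl cultures were. This corresponded to a log2 difference of 2.90 ± 0.15 (SE, limma adjusted p = 0.0256). The gene lies within RMDN2 on the opposite strand and overlaps RMDN2-AS1 on its own strand. RMDN2 had a mean of 2.97 TPM in Ctrl and 3.68 TPM in treated cultures.

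TIPARP (ENSG00000163659, chr3:156673235-156706770, plus strand), an ADP-ribosyltransferase that is induced by AhR and represses it, had 8.21, 5.70, 7.74 and 6.12 TPM in Ctrl and 16.2, 13.9, 16.2 and 13.3 TPM with D. rotundifolia 3×. All treated cultures lay above all Ctrl cultures, and the pairs rose by nearly the same amount, a log2 difference of 1.01 ± 0.066 (SE, limma adjusted p = 0.0355). In the 250 bases before the RefSeq start of TIPARP (chr3:156674340-156674589, GRCh38.p14, plus strand), the core of the AhR binding element, GCGTG, occurred in 2 places, both on the other strand and thus read as CACGC here. They begin 208 and 142 bases before the start and are shown in capitals because TIPARP and CYP1B1 are the clearest AhR targets among the rises.
TIPARP: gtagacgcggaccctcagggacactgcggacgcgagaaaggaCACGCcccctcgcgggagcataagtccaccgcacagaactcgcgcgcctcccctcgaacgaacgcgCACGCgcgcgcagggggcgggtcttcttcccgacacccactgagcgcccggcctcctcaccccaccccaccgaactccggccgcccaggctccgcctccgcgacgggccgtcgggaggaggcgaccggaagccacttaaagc
GCGTG is also one form of the HIF core site. On either strand it was present in 51.2% of the 9850 tested genes with a RefSeq window from 250 bases before to 50 after the start (36.3% of all 27305 windows), and in 17 of the 27 rising genes with such a window (63.0%). It was found in 6 of the 6 tested AhR target genes with a window, which do not include CYP1B1. Other lists had it too, in 5 of 6 EGFR ligand, 16 of 24 HIF target and 5 of 10 ERK cascade genes with a window. At these frequencies a match is a description of the sequence only.

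Of 12 genes on the AhR target list, 8 reached the filter and were tested. Of these, 4 rose (CYP1B1, TIPARP, SLC7A5 and STC2) and 0 fell, with a median log2 change of 0.66, where 0.267% of all tested genes rose. All 8 had a higher mean in treated cultures, as did 7375 of all 14255 tested genes, and 7 were higher in every pair (13.1% of all). ALDH3A1 counts among the 8 and the 7, but had a mean of 0.666 TPM in Ctrl and 1.47 TPM in treated cultures. It reached the filter only through its treated values, so its direction was set in advance. SLC7A5, the light chain of the LAT1 amino acid transporter and also a target of the amino acid sensor ATF4, had 95.8, 90.7, 97.3 and 118 TPM in Ctrl and 166, 162, 196 and 231 TPM with D. rotundifolia 3×. The groups did not overlap, with a log2 difference of 0.90 ± 0.05 (SE, limma adjusted p = 0.0286). STC2, a secreted stanniocalcin also on the ATF4 list, had 20.6 to 27.6 TPM in Ctrl and 32.2 to 48.5 TPM in treated cultures, a log2 difference of 0.75 ± 0.055 (SE, limma adjusted p = 0.0355). The detoxifying quinone reductase NQO1 had a smaller difference (162 to 176 TPM in Ctrl and 182 to 214 TPM in treated cultures, log2 change 0.27, adjusted p = 0.12 from limma) and did not pass. The receptor itself, AHR, and its partner ARNT had log2 differences of −0.10 and −0.09 (limma adjusted p = 0.85 and 0.688), values that were looked up after the list had been seen.

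ALDH1A3 (ENSG00000184254, chr15:100877714-100916626), an aldehyde dehydrogenase that makes retinoic acid, had 81.2, 89.1, 87.2 and 134 TPM in Ctrl and 186, 219.7, 267 and 288 TPM with D. rotundifolia 3×. Every treated culture exceeded every Ctrl culture, although Ctrl replicate 4 stood above the other Ctrl cultures, and the log2 difference of 1.29 ± 0.091 (SE, limma adjusted p = 0.0355) was seen in all 4 pairs. STRA6, the membrane receptor that takes up retinol, had 2.24 to 2.70 TPM in Ctrl and 5.11 to 7.13 TPM in treated cultures with no overlap, but did not pass (log2 difference 0.99, limma adjusted p = 0.0593). It was named after its values had been seen. HSD3B1, a steroid-synthesizing dehydrogenase, had 8.62 to 22.6 TPM in Ctrl and 16.2 to 42.7 TPM in treated cultures and rose (log2 difference 0.87, limma adjusted p = 0.0355). Its groups overlapped, because replicate 1 was low in both.

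The EGFR ligand genes formed the list with the highest median change of those examined, 1.31 on the log2 scale over 6 tested genes. The lists were chosen with earlier results of these data known, so their order is not a test. EREG, AREG, EPGN and HBEGF rose, 0 fell, and all 6 were higher in treated cultures in all 4 pairs. Over all tested genes, 0.267% rose and 13.1% were higher in all 4 pairs. EPGN (epigen; ENSG00000182585, chr4:74308470-74316789) was the most abundant of them, with 107, 145, 117 and 133 TPM in Ctrl and 270.3, 359, 341 and 328 TPM with D. rotundifolia 3×, a log2 difference of 1.37 ± 0.053 (SE, limma adjusted p = 0.0184). The groups were separate, and its adjusted p was the lowest of the called genes. EREG (epiregulin; ENSG00000124882, chr4:74365145-74388749) had 4.53, 5.93, 9.14 and 8.25 TPM in Ctrl and 16.5, 25.6, 38.99 and 28.4 TPM with D. rotundifolia 3×, a log2 difference of 1.81 ± 0.082 (SE, limma adjusted p = 0.0199). Here the cultures of replicate 3 had the highest and those of replicate 1 the lowest level in both groups.

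AREG (amphiregulin; ENSG00000109321, chr4:74445136-74455005), a ligand with heparin-binding ability, had 34.6, 40.6, 48.9 and 43.4 TPM in Ctrl and 78.7, 129, 174 and 120.1 TPM with D. rotundifolia 3×. Its log2 difference of 1.52 ± 0.11 (SE, limma adjusted p = 0.0355) was the smallest in pair 1 and the largest in pair 3. HBEGF (ENSG00000113070, chr5:140332843-140346603), the heparin-binding ligand that is also the diphtheria toxin receptor, had 4.69, 6.81, 6.54 and 5.81 TPM in Ctrl and 9.53, 18.3, 20.4 and 15.8 TPM with D. rotundifolia 3×, a log2 difference of 1.25 ± 0.11 (SE, limma adjusted p = 0.0423). The treated culture of replicate 1 was the lowest of its group for all of these ligands, yet above all Ctrl cultures. TGFA had 39.3 to 45.5 TPM in Ctrl and 50.3 to 63.04 TPM in treated cultures and BTC 4.81 to 5.46 TPM in Ctrl and 5.10 to 6.35 TPM in treated cultures, with log2 differences of 0.37 and 0.16 that did not pass (limma adjusted p = 0.0936 and 0.424). EGFR mRNA had a log2 change of −0.0015 (limma adjusted p = 0.995), also looked up after the other values had been seen.

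EPGN, EREG and AREG are direct neighbours on chromosome 4, in a stretch that also holds the chemokine genes CXCL8, CXCL6, CXCL1, CXCL5, CXCL3 and CXCL2 before them, MTHFD2L between the chemokines and EPGN, and BTC after AREG. Changes along this stretch were uneven. CXCL1, EPGN, EREG and AREG rose, CXCL8 and CXCL2 had estimates of 0.80 and 0.94 without passing, and CXCL3, CXCL5 and CXCL6 had estimates of 0.40, 0.20 and 0.045. MTHFD2L, an enzyme of mitochondrial folate metabolism that sits next to EPGN, had 5.21 to 6.43 TPM in Ctrl and 4.73 to 7.56 TPM in treated cultures, a log2 change of 0.098 (limma adjusted p = 0.688).

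**Figure D2:**
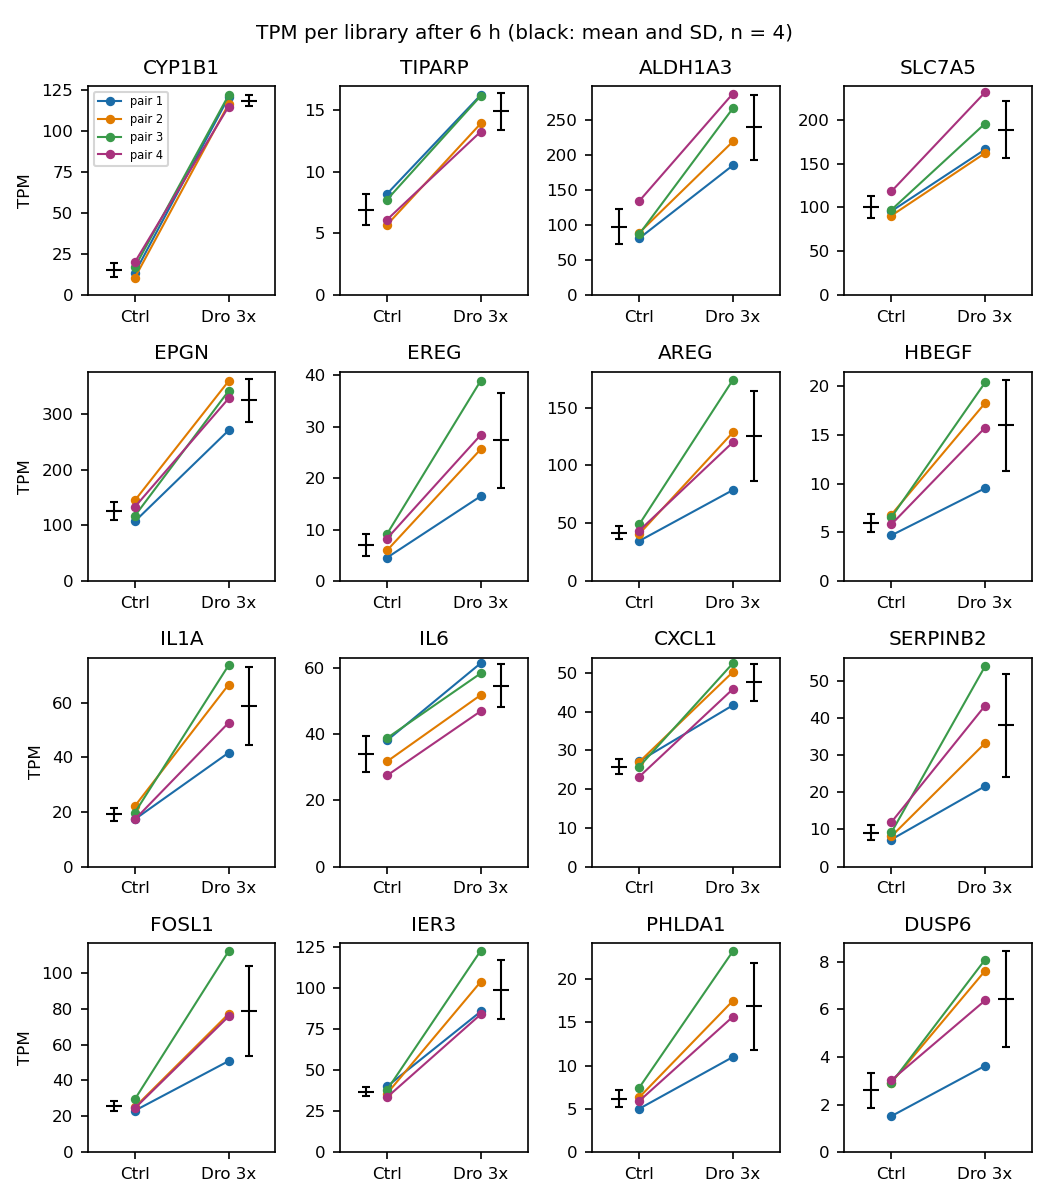
TPM (vertical axis, from 0) in each Ctrl and treated (Dro 3x) library for 16 of the 38 genes that rose. Coloured lines join libraries of the same replicate number, and black marks show mean and SD (n = 4). Each line goes up in every panel, and in these 16 genes no treated library falls to the level of a Ctrl library.

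Of 18 tested output genes of the ERK cascade, 9 rose and 0 fell, with a median log2 change of 0.62, and 17 had a higher mean in treated cultures. By comparison, 0.267% of all tested genes rose and 7375 of 14255 had a higher mean. The 9 include LIF, which is described with the cytokines. FOSL1 (ENSG00000175592, chr11:65892049-65900573), the AP-1 subunit FRA-1, had 23.2, 25.1, 29.6 and 24.6 TPM in Ctrl and 50.8, 77.03, 112 and 75.6 TPM with D. rotundifolia 3×, a log2 difference of 1.54 ± 0.13 (SE, limma adjusted p = 0.0399). IER3, a small regulator of survival and ERK signalling, had 40.2, 35.8, 38.1 and 33.6 TPM in Ctrl and 85.8, 104, 123 and 84.1 TPM with D. rotundifolia 3×, a log2 difference of 1.39 ± 0.1 (SE, limma adjusted p = 0.0355). For both genes the Ctrl cultures lay close together and the treated cultures spread more widely, without overlap.

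PHLDA1, a pleckstrin-homology protein induced by growth factors, had 5.03, 6.34, 7.45 and 5.92 TPM in Ctrl and 10.99, 17.5, 23.2 and 15.6 TPM with D. rotundifolia 3×, a log2 difference of 1.28 ± 0.099 (SE, limma adjusted p = 0.0355). Of the phosphatases that inactivate MAP kinases, DUSP4, DUSP5 and DUSP6 rose as well. DUSP6, which acts on ERK, had 1.52, 2.93, 2.91 and 3.03 TPM in Ctrl and 3.63, 7.61, 8.08 and 6.37 TPM with D. rotundifolia 3× (log2 difference 1.02, limma adjusted p = 0.0423). DUSP5 had 6.997 to 9.68 TPM in Ctrl and 12.8 to 18.99 TPM in treated cultures and DUSP4 5.003 to 7.45 TPM in Ctrl and 9.30 to 14.9 TPM in treated cultures, with log2 differences of 0.83 and 0.79 (limma adjusted p = 0.0361 and 0.0361). SPRY4, a Sprouty inhibitor of the cascade, had 1.48, 2.45, 2.60 and 2.43 TPM in Ctrl and 3.37, 5.89, 5.89 and 5.72 TPM with D. rotundifolia 3×, a log2 difference of 0.93 ± 0.073 (SE, limma adjusted p = 0.0355). Replicate 1 was low in both groups for DUSP6 and SPRY4, and its treated culture still exceeded all Ctrl cultures. EPHA2, a receptor tyrosine kinase of the ephrin family, had 42.03 to 60.4 TPM in Ctrl and 70.3 to 111 TPM in treated cultures (log2 difference 0.74, limma adjusted p = 0.0355).

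Other members of the ERK list showed smaller values that did not pass, among them SPRY2, ETV4, CCND1 and PLAUR with log2 differences of 0.43, 0.49, 0.47 and 0.41 (adjusted p from 0.128 to 0.165 from limma). ERRFI1, an intracellular inhibitor of EGFR kinase activity, had 65.6, 77.4, 68.1 and 57 TPM in Ctrl and 56.1, 73.7, 74.3 and 57.4 TPM with D. rotundifolia 3×. It was higher in 2 pairs and lower in 2 (log2 difference −0.040, limma adjusted p = 0.823), and its sign turned to 0.0214 without replicate 1. Among 17 tested immediate-early transcription factor genes FOSL1, which is also on the ERK list, was the 1 that rose, against 0.267% of all tested genes. The median log2 change of that list was 0.28, with 16 of 17 means higher in treated cultures (7375 of 14255 over all tested genes). EGR1 had 28.9, 22.5, 30.3 and 22.1 TPM in Ctrl and 40.1, 35.2, 43.8 and 42.1 TPM with D. rotundifolia 3× with no overlap between groups (log2 difference 0.63, limma adjusted p = 0.104). JUNB had 14.5 to 16.96 TPM in Ctrl and 22.3 to 26.3 TPM in treated cultures (log2 difference 0.57, limma adjusted p = 0.0859). FOS, by contrast, had 12.02, 7.37, 13.6 and 6.01 TPM in Ctrl and 7.67, 4.93, 14.6 and 17.1 TPM with D. rotundifolia 3× and was higher in 2 pairs (log2 difference 0.10, limma adjusted p = 0.928).

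Of 16 tested interleukin and cytokine genes, IL1A, IL1B, IL6 and LIF rose and 0 fell, with a median log2 change of 0.54. For comparison, 0.267% of all tested genes rose. IL36G, with means of 0.967 TPM in Ctrl and 1.44 TPM in treated cultures, was tested only through its treated values. IL1A (ENSG00000115008, chr2:112773925-112784493, minus strand), an alarmin of the interleukin-1 family, had 17.4, 22.2, 19.8 and 17.3 TPM in Ctrl and 41.7, 66.7, 73.7 and 52.7 TPM with D. rotundifolia 3×, a log2 difference of 1.54 ± 0.11 (SE, limma adjusted p = 0.0355). IL1B, its secreted relative, was much lower at 0.666 to 1.57 TPM in Ctrl and 2.18 to 3.68 TPM in treated cultures (log2 difference 0.84, limma adjusted p = 0.0423). Both groups were separate in both genes. IL6, the inducer of the acute-phase response, had 38.1, 31.7, 38.8 and 27.5 TPM in Ctrl and 61.4, 51.8, 58.3 and 46.9 TPM with D. rotundifolia 3×, a log2 difference of 0.67 ± 0.046 (SE, limma adjusted p = 0.0355). LIF, a cytokine of the IL-6 family that is also on the ERK list, had 18.4 to 29.99 TPM in Ctrl and 38.2 to 62.2 TPM in treated cultures (log2 difference 0.92, limma adjusted p = 0.0414).

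IL24, a relative of IL-10, had the largest estimate of the list and did not pass. It had 4.18, 7.12, 5.49 and 4.77 TPM in Ctrl and 33.4, 32.04, 101 and 37.9 TPM with D. rotundifolia 3×, so that every treated culture exceeded every Ctrl culture and the treated culture of replicate 3 stood far above the rest (log2 change 2.87, standard error 0.31, adjusted p = 0.0636 from limma). It passed without the block and with a filter of at least 5 TPM. CSF2, which encodes GM-CSF, and IL11 had 1.32 to 1.73 TPM in Ctrl and 2.71 to 7.71 TPM in treated cultures and 3.57 to 6.04 TPM in Ctrl and 7.10 to 14.9 TPM in treated cultures. Their log2 differences of 1.16 and 0.94 did not pass either (limma adjusted p = 0.147 and 0.0586), though their groups did not overlap. These 3 genes were named after their values had been seen.

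Of 11 tested chemokine genes, CXCL1 rose and 0 fell, with a median log2 change of 0.20. Rises made up 0.267% of all tested genes and falls 0.014%. CXCL1, a neutrophil attractant, had 27.2, 27.03, 25.8 and 23.2 TPM in Ctrl and 41.7, 50.3, 52.5 and 45.9 TPM with D. rotundifolia 3×, a log2 difference of 0.85 ± 0.079 (SE, limma adjusted p = 0.0423). CXCL2 had 14.04, 12.7, 14.3 and 11.2 TPM in Ctrl and 24.3, 25.7, 25.2 and 28.2 TPM with D. rotundifolia 3× with separate groups (log2 difference 0.94, limma adjusted p = 0.0636). CXCL8, the main neutrophil attractant of human airways, had 45.9, 33.9, 47.4 and 24.3 TPM in Ctrl and 70.2, 59.8, 99.7 and 41.6 TPM with D. rotundifolia 3×. It was higher in every pair, but the groups overlapped because replicate 4 was low in both (log2 difference 0.80, limma adjusted p = 0.0534). CCL20 had 3.79 to 10.7 TPM in Ctrl and 9.01 to 16.9 TPM in treated cultures (log2 difference 0.68, limma adjusted p = 0.145), while CXCL10, CXCL11 and CCL5, which interferons induce, had log2 differences of −0.11, −0.18 and −0.088 that did not pass.

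NF-kB feedback and target genes had 0 calls among 22 tested, with a median log2 change of 0.19 and 19 means higher in treated cultures (7375 of 14255 over all tested genes). NFKBIA, the inhibitor that NF-kB induces first, had 151 to 236 TPM in Ctrl and 185 to 282 TPM in treated cultures (log2 difference 0.28, limma adjusted p = 0.0629). BCL3 had 13.6 to 22.6 TPM in Ctrl and 29.3 to 33.4 TPM in treated cultures with no overlap (log2 difference 0.70, limma adjusted p = 0.164). Of 29 tested interferon-stimulated genes, 19 had a lower mean in treated cultures (6880 of 14255 over all tested genes) and 0 passed, with a median of −0.040. PTGS2, the inducible cyclooxygenase, had 1.08 to 1.60 TPM in Ctrl and 2.23 to 4.03 TPM in treated cultures (log2 difference 0.79, limma adjusted p = 0.0638), and 0 of the 6 tested prostaglandin synthesis genes passed.

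SERPINB2 (ENSG00000197632, chr18:63871692-63903888, plus strand), an inhibitor of urokinase, had the second largest change among the called genes. It had 7.30, 8.15, 9.19 and 11.95 TPM in Ctrl and 21.6, 33.2, 53.9 and 43.3 TPM with D. rotundifolia 3×, a log2 difference of 1.89 ± 0.16 (SE, limma adjusted p = 0.0399). The groups did not overlap, and replicate 1 had the lowest level in both. It was the 1 rise among 10 tested plasminogen activator system and serpin genes (median log2 change 0.26), against 0.267% of all tested genes. The protease it inhibits, PLAU (urokinase), had 148 to 179 TPM in Ctrl and 221 to 329.7 TPM in treated cultures with no overlap and did not pass (log2 difference 0.71, limma adjusted p = 0.0661). The same was true of the urokinase receptor PLAUR, with 139 to 147 TPM in Ctrl and 161 to 201 TPM in treated cultures.

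The promoters of IL1A and SERPINB2 are shown because they are a pair of strong rises whose windows hold the AP-1 motif, which FOSL1-containing dimers bind (TGANTCA, searched on both strands, in capitals). The letters also form part of the longer sites of MAF proteins. In IL1A (chr2:112784494-112784743, GRCh38.p14, minus strand) it begins 12 bases before the RefSeq start, and 1 further copy lies within the 50 bases after the start, which are not printed. In SERPINB2 (chr18:63887455-63887704, plus strand) it begins 102 bases before the start.
IL1A: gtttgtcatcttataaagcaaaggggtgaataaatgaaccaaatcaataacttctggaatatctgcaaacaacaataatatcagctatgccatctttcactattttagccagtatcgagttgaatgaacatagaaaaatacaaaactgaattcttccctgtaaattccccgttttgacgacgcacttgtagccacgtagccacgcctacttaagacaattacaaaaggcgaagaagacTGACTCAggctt
SERPINB2: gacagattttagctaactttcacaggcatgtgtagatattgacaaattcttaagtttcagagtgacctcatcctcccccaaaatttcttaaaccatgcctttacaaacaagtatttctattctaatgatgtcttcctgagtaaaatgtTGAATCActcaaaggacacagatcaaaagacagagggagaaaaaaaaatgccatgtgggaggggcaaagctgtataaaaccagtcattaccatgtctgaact
The motif was in 3 of the 27 rising genes with a window (11.1%; the third was SLC3A2), in 4.68% of the 9850 tested genes with a window and in 7.76% of all windows. No such match was found in the windows of the 6 tested EGFR ligand genes, which says only that these letters do not occur there.

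Amino acid response genes of ATF4, the transcription factor that cells make when amino acids run short, had 3 rises (SLC7A5, STC2 and SLC3A2) and 0 falls among 32 tested. The median log2 change was 0.17, and 30 of 32 means were higher in treated cultures. For all tested genes, 0.267% rose and 7375 of 14255 means were higher. SLC3A2, the heavy chain that anchors SLC7A5 in the membrane, had 279, 247, 300.4 and 373 TPM in Ctrl and 401, 389.8, 447 and 606 TPM with D. rotundifolia 3×, a log2 difference of 0.61 ± 0.042 (SE, limma adjusted p = 0.0355). Replicate 4 had the highest level in both groups. ASNS, the asparagine synthetase, had a log2 change of 0.17 (limma adjusted p = 0.459), and the endoplasmic reticulum chaperone and unfolded protein response list had 0 calls among 20 genes with a median of 0.028.

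Among 21 tested genes of NRF2, the regulator of antioxidant defence, TXNRD1 rose and 0 fell (median log2 change 0.17, 19 means higher). Across all tested genes, 0.267% rose and 7375 of 14255 means were higher. TXNRD1, thioredoxin reductase, had 159, 170.2, 182 and 173 TPM in Ctrl and 256, 252, 282 and 231 TPM with D. rotundifolia 3×, a log2 difference of 0.57 ± 0.054 (SE, limma adjusted p = 0.0423). Its groups were separate. The gene overlaps the pseudogene RPL18AP3 on its own strand, which had a log2 change of 0.037. OSGIN1, SRXN1 and HMOX1, other targets of NRF2, had log2 differences of 0.65, 0.37 and 0.28 (limma adjusted p = 0.121, 0.128 and 0.356).

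The remaining rises had varied roles. THBS1, the matricellular protein thrombospondin that activates TGF-beta, was the most abundant called gene, with 326, 386, 446 and 366 TPM in Ctrl and 534, 673, 865 and 558 TPM with D. rotundifolia 3×, a log2 difference of 0.77 ± 0.063 (SE, limma adjusted p = 0.0361). It was the 1 rise among 24 tested integrin and basement membrane genes. TNFRSF12A, the TWEAK receptor, had 146 to 209.5 TPM in Ctrl and 193 to 300.1 TPM in treated cultures (log2 difference 0.49, limma adjusted p = 0.0423). ADAM8, a membrane protease, was the 1 rise among 9 tested matrix metalloproteinase genes and relatives (117 to 149 TPM in Ctrl and 151 to 203 TPM in treated cultures, log2 change 0.40). PLK3, a stress-responsive kinase, was the 1 rise among 22 tested p53 target genes (15.6 to 20.1 TPM in Ctrl and 26.9 to 36.9 TPM in treated cultures, log2 change 0.73). The share of rises over all tested genes, for comparison with each of these lists, was 0.267%.

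SLC20A1, a phosphate transporter, had 37.04 to 48.3 TPM in Ctrl and 53.8 to 86.1 TPM in treated cultures (log2 change 0.73), and TPRA1, a membrane protein, had 21.1 to 28.8 TPM in Ctrl and 36.9 to 46.2 TPM in treated cultures (log2 change 0.71). PROSER2 and LRATD2, genes of less known function, had log2 differences of 0.56 and 0.51. The adjusted p of these 4 genes ran from 0.0361 to 0.0489 in limma.

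Of the 38 rises, 36 were protein-coding genes of GENCODE 44, and 3 of the 38 gene IDs are uncertain as separate genes. AC008403.1 (ENSG00000268465), annotated as a protein-coding gene, overlaps KCNJ14 and CYTH2 on its own strand. It had 2.76 to 3.87 TPM in Ctrl and 7.26 to 8.11 TPM in treated cultures, a log2 difference of 1.09 ± 0.094 (SE, limma adjusted p = 0.0399), whereas CYTH2 had a log2 change of 0.12 (limma adjusted p = 0.752). RNU1-125P, a U1 small nuclear RNA pseudogene, lies within IL32 on the same strand. It had 93.05 to 129 TPM in Ctrl and 117 to 168 TPM in treated cultures with a log2 change of 0.35 (limma adjusted p = 0.0423), and IL32 had 357 to 519 TPM in Ctrl and 438 to 514 TPM in treated cultures with a log2 change of 0.14 (limma adjusted p = 0.495). The third, ENSG00000269103, carries the symbol Metazoa_SRP, which many gene IDs share as copies of the signal recognition particle RNA. Its call was lost when TPM were summed by symbol.

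**Figure D3:**
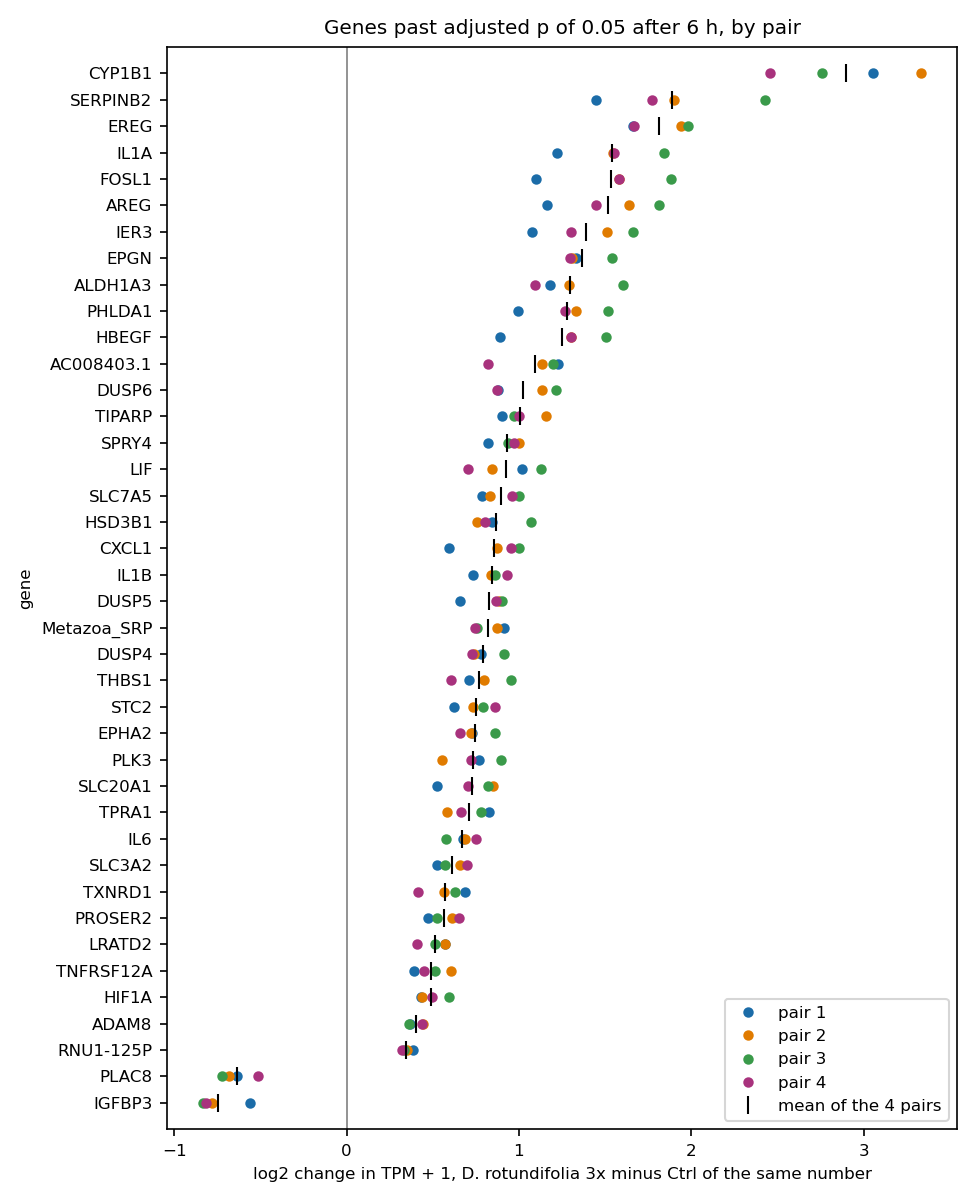
Log2 change in TPM + 1 in each of the 4 pairs (coloured points) and their mean (black bar) for the 40 genes past the adjusted p of 0.05. All points of the 38 rises lie right of 0 and all points of the 2 falls left of it. Pair 3 (green) is most often the rightmost point and pair 1 (blue) most often the leftmost.

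The pairs did not contribute alike. Over the 38 rises, the median log2 change was 0.80 in pair 1, 0.85 in pair 2, 0.95 in pair 3 and 0.84 in pair 4. Pair 3 had the largest change for 21 of the 38 genes, and pair 1 the smallest for 20 and pair 4 for 13. Over all tested genes the median change in a pair lay between −0.0058 and 0.036. CYP1B1 departed from this order: its change was the largest in pair 2 and the smallest in pair 4.

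Fewer genes fell than rose, and the sizes of both falls lay within the range of the 38 rises (0.35 to 2.90 on the log2 scale). IGFBP3 (ENSG00000146674, chr7:45912245-45921874), a secreted protein that binds insulin-like growth factors and is also on the YAP and TEAD target list, had 351, 278, 283 and 175 TPM in Ctrl and 238, 161, 158 and 98.9 TPM with D. rotundifolia 3×. It was lower in all 4 pairs, with a log2 difference of −0.75 ± 0.057 (SE, limma adjusted p = 0.0355), but the groups overlapped, since the treated culture of replicate 1 lay above the Ctrl culture of replicate 4. PLAC8, a small cysteine-rich protein, had 259, 222, 198 and 97.5 TPM in Ctrl and 166, 138, 119 and 68.1 TPM with D. rotundifolia 3×, a log2 difference of −0.64 ± 0.047 (SE, limma adjusted p = 0.0355). Its groups overlapped in the same way, and in both genes levels were highest in replicate 1 and lowest in replicate 4 of each group. Lower values in all 4 pairs were seen for 9.91% of all tested genes, and 1.65% had every treated library below every Ctrl library. Both calls were lost without the block (0 lower, limma).

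Genes that HIF, the hypoxia-inducible transcription factor, switches on were mostly lower: 25 of 29 tested had a lower mean in treated cultures, 12 were lower in all 4 pairs, and the median log2 change was −0.19. Over all 14255 tested genes, 6880 had a lower mean and 9.91% were lower in all 4 pairs. None of the 29 passed the test. BNIP3, a mitochondrial receptor of mitophagy, had 52.5, 46.98, 42.2 and 24.98 TPM in Ctrl and 40.2, 30.3, 26.1 and 13.7 TPM with D. rotundifolia 3× (log2 difference −0.62, limma adjusted p = 0.0959). P4HA1, a collagen prolyl hydroxylase, had 59.4, 55.1, 56.99 and 42.3 TPM in Ctrl and 46.2, 37.3, 42.4 and 31.8 TPM with D. rotundifolia 3× (log2 difference −0.43, limma adjusted p = 0.0661). NDRG1 had 102 to 226 TPM in Ctrl and 75.2 to 162 TPM in treated cultures (log2 difference −0.39, limma adjusted p = 0.069). Each of these 3 genes was lower in every pair and each overlapped between groups, with replicate 4 low in both.

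HIF1A, which encodes the oxygen-regulated subunit of HIF itself, was on the other hand among the rises. It had 64.1, 81.7, 79.2 and 81.6 TPM in Ctrl and 86.8, 111, 120.1 and 116 TPM with D. rotundifolia 3×, a log2 difference of 0.49 ± 0.044 (SE, limma adjusted p = 0.0414), with no overlap. Not all HIF targets were lower: VEGFA, the vascular growth factor, and SLC2A1, the glucose transporter GLUT1, had log2 differences of 0.45 and 0.39 and were higher in all 4 pairs, without passing (limma adjusted p = 0.292 and 0.145). LDHA and PGK1, enzymes of glycolysis, had log2 differences of −0.24 and −0.19 and were lower in all 4 pairs. The glycolysis list as a whole had a median of −0.079 with 13 of 19 means lower, against 6880 of 14255 over all tested genes.

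FOXO target and insulin signalling genes had the lowest median of the lists, −0.23 over 17 tested genes, with 12 means lower, 10 of them in all 4 pairs, and 0 calls. Among all tested genes, 6880 of 14255 means were lower and 9.91% of genes were lower in all 4 pairs. CCNG2, an unusual cyclin linked to cell cycle exit, had 63.9, 57.1, 52.7 and 50.9 TPM in Ctrl and 52.6, 42.8, 34.1 and 34.8 TPM with D. rotundifolia 3× (log2 difference −0.46, limma adjusted p = 0.12). DEPP1, a FOXO-induced regulator of autophagy, had 20.5, 17.4, 15.2 and 9.87 TPM in Ctrl and 13.6, 11.6, 12.04 and 6.46 TPM with D. rotundifolia 3× (log2 difference −0.49, limma adjusted p = 0.107). TXNIP, an arrestin that restrains glucose uptake, had 47.8 to 84.3 TPM in Ctrl and 29.6 to 72.5 TPM in treated cultures (log2 difference −0.45, limma adjusted p = 0.206). GADD45A, a growth arrest gene, went the other way at 26.2 to 29.8 TPM in Ctrl and 35.3 to 46.4 TPM in treated cultures (log2 difference 0.55, limma adjusted p = 0.0645).

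**Figure D4:**
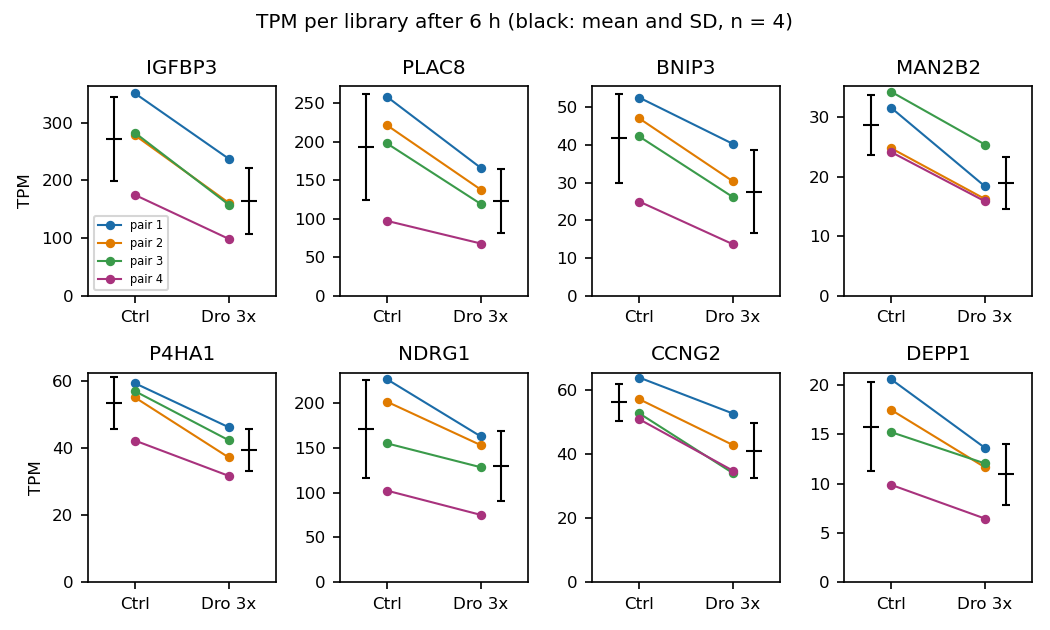
TPM (vertical axis, from 0) in each Ctrl and treated (Dro 3x) library for IGFBP3 and PLAC8, which fell, and for 6 genes with lower estimates that did not pass. Coloured lines join libraries of the same replicate number, and black marks show mean and SD (n = 4). Every line goes down, and in all 8 panels the groups overlap.

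MAN2B2, a lysosomal mannosidase, had 31.5, 24.7, 34.2 and 24.1 TPM in Ctrl and 18.3, 16.2, 25.3 and 15.8 TPM with D. rotundifolia 3× (log2 difference −0.58, limma adjusted p = 0.069). RAB29, a small GTPase of lysosomal traffic that was named after its values had been seen, had 30.5, 25.8, 27.9 and 21.7 TPM in Ctrl and 18.7, 16.3, 14.1 and 14.4 TPM with D. rotundifolia 3× with no overlap (log2 difference −0.70, limma adjusted p = 0.0638), and it fell with a filter of at least 5 TPM. The lysosomal hydrolase and membrane list had a median of 0.0071 over 29 genes with 0 calls. G2/M and mitosis genes had a median of −0.11 over 30 genes, 23 with a lower mean and 15 lower in all 4 pairs, and 0 passed. The same held for 6880 of 14255 means and 9.91% of genes over all tested genes. KIF20A, a mitotic kinesin, and NUSAP1, a spindle protein, had 58.3 to 78.4 TPM in Ctrl and 51.1 to 67.2 TPM in treated cultures and 169 to 179 TPM in Ctrl and 143 to 159.9 TPM in treated cultures, with log2 differences of −0.21 and −0.19 (limma adjusted p = 0.2 and 0.194).

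**Figure D5:**
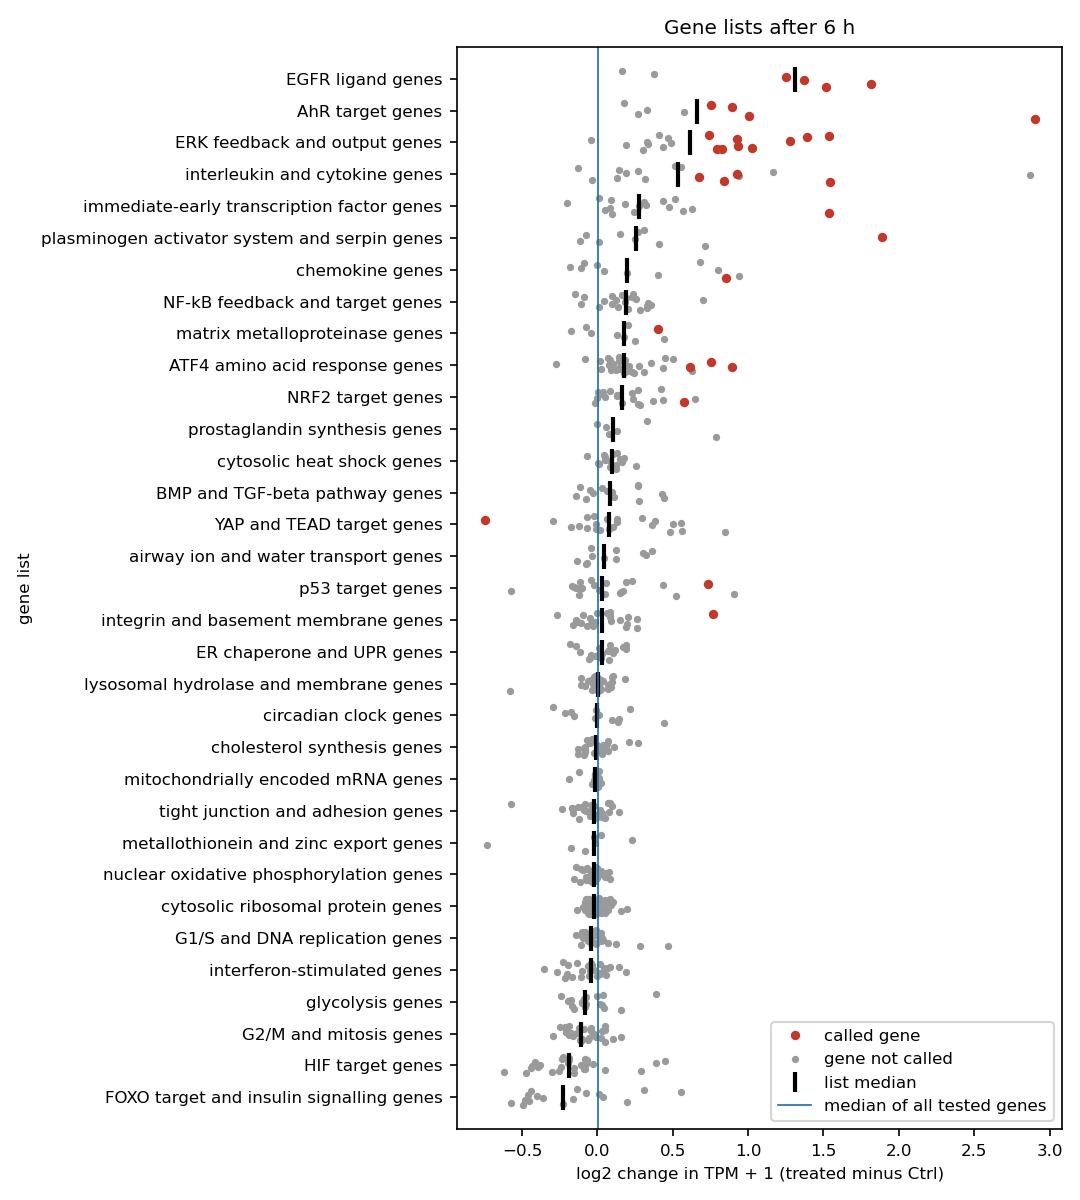
Log2 change of each tested gene (points; red where called) in the pathway lists, one list per row, with the list median (black bar) and the median of all tested genes (blue line, 0.0052). EGFR ligand, AhR target and ERK genes sit farthest right, with medians of 1.31, 0.66 and 0.62, and HIF and FOXO target genes farthest left, with −0.19 and −0.23. The lists were chosen with earlier results of these data known.

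YAP and TEAD target genes, which answer to cell shape and density, were mixed: of 23 tested, 0 rose and IGFBP3 fell, with a median of 0.078. The shares over all tested genes were 0.267% for rises and 0.014% for falls. CCN2 and CCN1, matricellular proteins and classic targets of YAP, had 7.95 to 10.2 TPM in Ctrl and 12.3 to 20.01 TPM in treated cultures and 101 to 112 TPM in Ctrl and 126 to 178 TPM in treated cultures, with no overlap in either. Their log2 differences of 0.84 and 0.48 did not pass (limma adjusted p = 0.0638 and 0.142). The lists of BMP and TGF-beta, heat shock, metallothionein, G1/S, cholesterol synthesis, tight junction, ion and water transport, oxidative phosphorylation, mitochondrially encoded, ribosomal protein and circadian clock genes had 0 calls in either direction. Their medians lay between −0.040 and 0.096. KRT18 had 0.39 and KRT19 −0.19 on the log2 scale (limma adjusted p = 0.287 and 0.264), the latter lower in all 4 pairs.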

How the data were processed

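RNA of 16HBE cells treated for 6 h was sequenced as poly(A), strand-specific, single-end libraries. The authors mapped them to GENCODE 32 transcripts (GRCh38.p13) in Salmon 0.13.1, correcting for GC bias. Gene values came from tximport, genes with few reads were dropped, and the authors' own tests used DESeq2 1.22.2 in R 3.5.3. The deposited 6 h table holds TPM per gene and library, the values used here, and a signal, the authors' mean normalized count over libraries, which sums to 30205203 and stands for an average library. Its columns of the authors' comparison (shrunken log2 fold change, its error, Wald statistic and p-values) were not used. Counts per library were not used here, and the study states one approximate depth for all samples, so the depth of each library is not known, no count test was run, and no interval for counting error is given.

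Of 24760 rows, 89 repeats were removed. limma 3.58.1 in R 4.3.3 was fitted on log2(TPM + 1) for 14255 gene IDs with a mean of at least 1 TPM, with replicate number as a block (3 residual degrees of freedom), eBayes with a trend, and Benjamini-Hochberg adjustment with a threshold of 0.05. The fit was also run on data simulated from the same model. Such data cannot show how well that model suits the real libraries. Same-numbered libraries were taken as pairs because the comparison was defined so and the cultures shared plates. No label ties a number to a plate or day. Residuals of same-numbered libraries correlated at 0.0570 (replicate 1), 0.101, 0.152 and 0.206 (replicates 2 to 4), and 7 of 8 libraries correlated best with their own number. The study ran 4 biological replicates of a single line. With the block, p-values rest on the spread of the differences within the 4 pairs, moderated by eBayes. Differences in level between replicates are taken up by the block.

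Genes named by rule were those the study's text names and up to 4 genes with the smallest p per list. The 12 largest called changes in each direction with one sign in all 4 pairs were named too. There, a symbol shared by several gene IDs counted only if it also passed with TPM summed by symbol. Members and lists were chosen with earlier results of these data known, so lists are described by counts and medians only. All 40 called genes are named. Some further genes fall outside these rules and were picked with their values in view. Among them are STRA6, TGFA, BTC, SPRY2, ETV4, FOS, VEGFA, TXNIP, ASNS, HMOX1, CCN1, CXCL10, CXCL11 and CCL5. Neighbouring and overlapping genes were added by position. Of 14255 tested IDs, 14222 were found in GENCODE 44, which gave coordinates. Promoter windows and their sequences are from RefSeq (GRCh38.p14), which matched 27 of 38 rising genes. Alternatives were: no block, pseudocounts of 0.1 and 5 TPM, no filter or a mean of at least 5 TPM, median-of-ratios scaling, no trend, sums by symbol, and leaving out each pair. Tables and figures used Python 3.11.15, pandas 2.3.3, numpy 2.4.6 and matplotlib 3.10.9.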

Additional observations from a re-analysis of the deposited data

Results flagged for a closer look

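In 80 groups of 4 libraries (40 called genes in Ctrl and in treated cultures), 8 held a library that stood apart from the other 3, with a gap to the nearest one above Dixon's critical value for 4 samples. Chance flags about 1 in 20 independent groups. These groups share the same 8 libraries and belong to called genes, so the 8 flags cannot be set against that rate. Ctrl replicate 1 was the lowest for HIF1A (64.06 TPM, against 79.2 to 81.74 in the other 3), DUSP6 (1.52 TPM, against 2.913 to 3.026) and SPRY4 (1.475 TPM, against 2.426 to 2.60). The treated culture of replicate 1 was the lowest for SPRY4 as well (3.371 TPM, against 5.719 to 5.893). Ctrl replicate 4 was the highest for ALDH1A3 (134.5 TPM, against 81.23 to 89.15) and AC008403.1 (3.87 TPM, against 2.764 to 2.915), and the lowest for RNU1-125P (93.05 TPM, against 126.3 to 128.8). RNU1-125P was also the lowest in treated replicate 4 (116.7 TPM, against 159.2 to 167.7).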

How the results depend on the processing

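The counts of 38 higher and 2 lower genes were within 1.5 times under pseudocounts of 0.1 TPM (37 and 2) and 5 TPM (34 and 2), a mean of at least 5 TPM (40 and 3), median-of-ratios scaling (29 and 2) and TPM summed by symbol (38 and 2). The further lower call at 5 TPM was RAB29. With no replicate block 15 genes were higher, also 15 beyond 0.4 on the log2 scale, and 0 lower, at any size. The 8 shared with the paired fit were CYP1B1, TIPARP, IL1A, IER3, CXCL1, EPGN, TXNRD1 and AC008403.1. The direction of the 40 called genes could not change here, since dropping the block leaves the estimates of complete pairs the same. With no filter on low values, and with moderation with no trend, 2 genes were higher (EREG and EPGN, both beyond 0.4) and 0 lower. Without replicate 1, 2, 3 or 4 the counts were 0 to 0 in both directions, at any size and beyond 0.4, with unadjusted p under 0.05 from limma for 1118 to 2338 genes. These fits have 3 pairs, and the smallest adjusted p among the 40 genes was 0.0621 to 0.165. Leaving out a pair turned the sign of ERRFI1 (−0.0944 to 0.0214, positive without replicate 1), MT-ND3 (−0.0686 to 0.0098, positive without replicate 3), MT-ND4 (−0.0639 to 0.0709, negative without replicate 1) and PIFO (−0.0481 to 0.1528, negative without replicate 1), none of them called. Of 1872 values of genes named by rule or called, under 12 alternatives, 1579 kept direction and side of the threshold, 285 fell behind it, 4 passed it newly and 4 turned sign. The causes of these changes were not tested. TPM do not carry the depth of single libraries, so no limit from counting error is given.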
